A study of Rattus norvegicus with 4 samples.

Results

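Pericytes wrap the capillaries of muscle and, with the smooth muscle cells of larger vessels, make up the mural cells, which set vessel tone. Kcnj8 encodes the pore subunit Kir6.1 and Abcc9 the sulfonylurea receptor SUR2 of an ATP-sensitive potassium (KATP) channel, whose opening hyperpolarises mural cells and relaxes the vessel. Rgs4 and Rgs5 encode regulators of G-protein signalling, which shorten the signals of receptors such as Adra2a, the alpha-2A adrenergic receptor. Endothelial cells release the growth factor encoded by Pdgfb, and pericytes receive it through the receptor encoded by Pdgfrb.

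The 9 genes described are Kcnj8, Abcc9, Rgs5, Rgs4, Vtn, Higd1b, Pdgfrb, Pdgfb and Adra2a, taken by symbol from the 25399 genes measured. Each symbol matched a single gene. They were measured by 3′ single-cell RNA sequencing of the cells released by enzymes from rat muscle at 12 months of age. One source was the extraocular muscles (EOM) that turn the eyeball, and the other the tibialis anterior (TA) of the limb. The series holds 4 libraries, namely EOM labelled DMD, EOM labelled WT, TA labelled DMD and TA labelled WT, with 2261, 1249, 7964 and 2083 analysed cells. Loss of dystrophin causes Duchenne muscular dystrophy (DMD), which is known to spare the extraocular muscles relative to limb muscles, and WT stands for wild type. The Dmd allele, the strain and the number of animals behind a library are not given in the labels.

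The disease state field and the sample title contradict each other in all 4 samples. The words labelled DMD and labelled WT follow the disease state field throughout, and reading the titles in its place would turn round the sign of each difference between DMD and WT. Each group is 1 library, so no difference below has a replicate check and no p-value is given. Levels are counts of unique molecular identifiers (UMIs) per 1000000 UMIs of the same cells (CPM). Parentheses after a value give its 95% interval, which allows for counting error and nothing else. Folds are ratios of CPM, as DMD over WT or EOM over TA. A gene was called higher or lower when its log2 ratio, with a prior of 10 CPM on both sides, reached a 2-fold change, among genes with at least 20 CPM in either library. Comparisons that share a library are not independent of each other.

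TA labelled DMD stood apart from the other 3 libraries in depth and in the UMIs of mural genes that its other cells held. Its analysed cells had a median of 1221.5 UMIs, against 2482 to 4486 elsewhere. Blood-lineage cells, which should lack mural genes, held Kcnj8 at 54.3 CPM in TA labelled DMD, against 12.9 CPM in EOM labelled DMD, 0.531 CPM in EOM labelled WT and 0 CPM in TA labelled WT, where a count of 0 allows up to 2.35 CPM (3 counts). Rgs5 had 89.3 CPM in the same cells of TA labelled DMD and at most 18.9 CPM in those of the other libraries. Blood-lineage cells are therefore the background against which low levels in non-mural classes are read. This background is a pooled level and was not uniform. In EOM labelled DMD, 44 of its 47 Rgs5 UMIs lay in 4 mast-like cells. In TA labelled DMD, Kcnj8 ran from 16.6 CPM in dendritic-like cells to 134.5 CPM in neutrophil-like cells, the latter from 8 UMIs. Of the barcode sequences, 22 occurred in 2 libraries, and 10 of them were among the analysed cells.

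A pair of these genes lies side by side on rat chromosome 4, Kcnj8 with Abcc9, and another on chromosome 13, Rgs5 with Rgs4, with 0 annotated genes between the members of either pair. The members of each pair had similar cell-type patterns, as described below. They shared this likeness with Vtn, Higd1b and Pdgfrb, which lie on other chromosomes. The promoters of the neighbours are shown for their position, and a link between position and pattern was not tested. Each sequence is the 150 bases before the annotated gene start, from RefSeq on build GRCr8, written 5′ to 3′ on the gene's own strand. Capitals mark a GC box (GGGCGG on either strand, so CCGCCC where it lies on the other strand) or a TATA box (TATAAA).
Kcnj8 (chr4:177246549-177246698, minus strand): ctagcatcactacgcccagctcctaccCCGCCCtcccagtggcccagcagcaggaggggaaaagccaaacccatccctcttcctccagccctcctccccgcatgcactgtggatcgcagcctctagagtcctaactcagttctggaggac
Abcc9 (chr4:177386349-177386498, minus strand): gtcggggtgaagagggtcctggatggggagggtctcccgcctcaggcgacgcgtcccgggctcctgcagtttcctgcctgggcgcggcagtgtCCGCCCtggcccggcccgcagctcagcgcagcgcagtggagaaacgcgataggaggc
Rgs5 (chr13:84380927-84381076, plus strand): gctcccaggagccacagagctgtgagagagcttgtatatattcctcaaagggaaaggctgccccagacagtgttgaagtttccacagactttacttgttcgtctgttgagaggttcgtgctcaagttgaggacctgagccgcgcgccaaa
Rgs4 (chr13:84475885-84476034, minus strand): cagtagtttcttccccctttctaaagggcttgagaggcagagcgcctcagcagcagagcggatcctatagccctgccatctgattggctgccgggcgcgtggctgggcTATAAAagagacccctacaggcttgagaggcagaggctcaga
Kcnj8 and Abcc9 each held 1 GC box in this window, a motif found in 26.0% of the 33469 rat promoter windows of the same length. Rgs4 held 1 TATA box, found in 8.0% of the windows, and Rgs5 held neither motif. The CArG box, the site of serum response factor in contractile genes, was searched on both strands by name, occurs in 0.878% of windows and had 0 matches in these sequences. GC content was 62.0% for Kcnj8, 72.0% for Abcc9, 52.0% for Rgs5 and 58.0% for Rgs4, against a median of 52.7% over all windows. RefSeq promoters were matched for 7 of the 9 genes, and those of Higd1b and Pdgfrb are named only.

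Cells were grouped by clustering without the 9 genes, and none of the 9 served as a marker for naming. Of the 33 clusters, 4 were mural-like. The pericyte-like cluster was led by Ndufa4l2 and Cox4i2, mitochondrial subunit genes used as pericyte markers, and held 101 cells in EOM labelled DMD, 70 in EOM labelled WT, 282 in TA labelled DMD and 122 in TA labelled WT. All 12 pericyte naming markers had UMIs in it in every library. The smooth muscle-like clusters were led by Acta2, the smooth muscle actin gene, by Ccl11, a chemokine gene, and by Rasl11a. They held 53, 20, 1314 and 58 cells in the same order of libraries, so pericyte-like cells made up 65.6% of mural-like cells in EOM labelled DMD, 77.8% in EOM labelled WT, 17.7% in TA labelled DMD and 67.8% in TA labelled WT. The Rasl11a-led cluster had 764 of its 792 cells in TA labelled DMD and met the naming rule for pericyte-, endothelial- and fibroblast-like cells too. The rule was also met for smooth muscle by the pericyte-like cluster, for pericytes and fibroblasts by the Acta2-led one, and for pericytes, fibroblasts and Schwann cells by the Ccl11-led one. The Ccl11-led cluster was deep, with a median of 6552.5 UMIs per cell. Cells with the highest doublet scores were removed before clustering, and doublets left in this cluster were not tested. Values for all mural-like cells therefore carry the difference in make-up between libraries, whose size changed with the clustering, as given in the closing section. Values for pericyte-like cells are given beside the mural-like ones for the 9 genes.

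Pericyte-like cells had close depths in the 4 libraries, with medians of 3430, 3719, 3433 and 3879 UMIs per cell in EOM labelled DMD, EOM labelled WT, TA labelled DMD and TA labelled WT. Their median share of mitochondrial UMIs was 9.53%, 12.4%, 6.51% and 8.30% in the same order. Markers of fibroblast-like cells summed to 743, 1157, 1186 and 1365 CPM in them, and endothelial markers to 605, 810, 651 and 893 CPM. Both sums were lower in the library labelled DMD of each muscle, and their part in the results was not tested.

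Kcnj8, Abcc9, Rgs5, Rgs4, Vtn, Higd1b and Pdgfrb had their highest level in pericyte-like cells in each library. The next class was smooth muscle-like wherever that class had at least 50 cells. The intervals of these classes did not overlap for any of the 7 genes. The fold of pericyte-like over smooth muscle-like cells was 14.4 for Kcnj8 in EOM labelled DMD (11.9–17.5), 6.17 in TA labelled DMD (5.74–6.65) and 9.96 in TA labelled WT (7.86–12.8). For Rgs4 it was smaller, at 3.86 (3.39–4.41), 3.11 (2.93–3.31) and 2.13 (1.87–2.44) in the same libraries. EOM labelled WT had 20 smooth muscle-like cells, and its next class for Kcnj8, fibroblast-like cells, stood 187-fold lower (135–269). Below the mural-like classes neighbours in the order often overlapped, as in TA labelled DMD from Schwann-like cells, with 54.6 CPM of Kcnj8, down to endothelial-like cells, with 34.2 CPM.

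**Figure D1:**
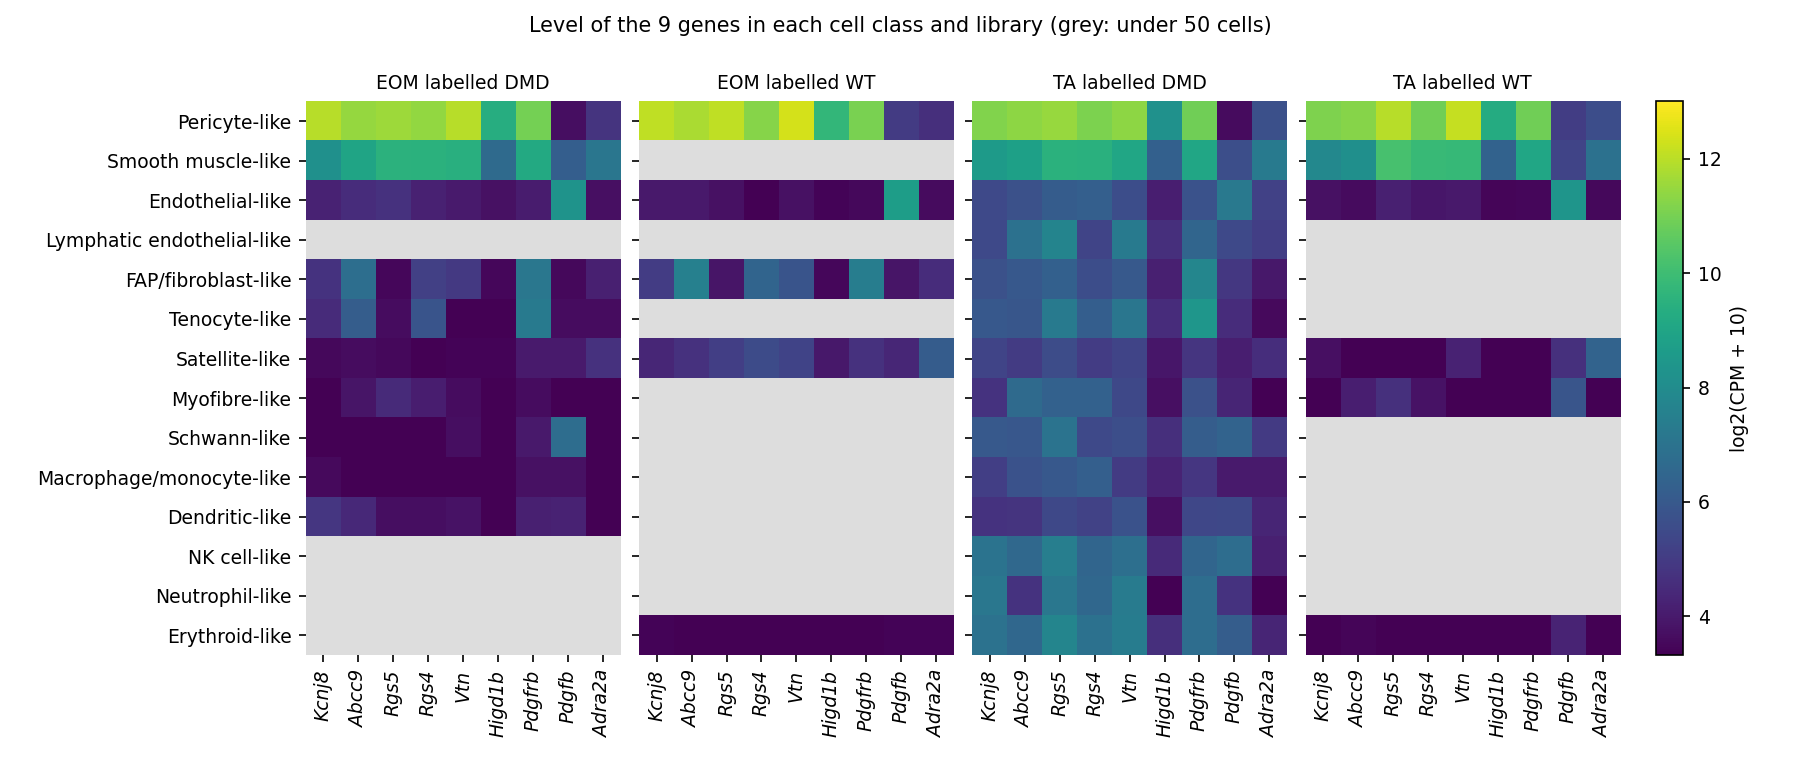
Colour gives the level, as log2(CPM + 10), of the 9 genes (columns) in each cell class (rows) of each library (panels); grey marks classes with under 50 cells. Of the 9 genes, 7 are brightest in the pericyte-like row of every panel, Pdgfb is brightest in the endothelial-like row, and TA labelled DMD shows a raised level of the mural genes in its other classes.

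Kcnj8, the channel pore gene, was higher in EOM than in TA under both labels. It had 3999 CPM in pericyte-like cells of EOM labelled DMD, 4288 in EOM labelled WT, 2317 in TA labelled DMD and 2202 in TA labelled WT, from 1400, 1164, 2265 and 1021 UMIs. The EOM values both lay above the TA values, and in this clustering the values of the disease labels within a muscle lay close together. The fold of EOM over TA was 1.73 between the libraries labelled DMD (1.61–1.85) and 1.95 between those labelled WT (1.79–2.12), and neither was called. The fold of DMD over WT was 0.932 in EOM (0.862–1.01) and 1.05 in TA (0.977–1.13), intervals that include 1. Over other settings and clusterings the log2 ratio of DMD over WT ran from -0.44 to 0.14 in EOM and from -0.67 to 0.19 in TA, so its direction changed with the setting. The 12 naming markers of pericytes, summed, were higher in EOM than in TA too. The fold of their sum was 1.42 between the libraries labelled DMD (1.37–1.48) and 1.22 between those labelled WT (1.17–1.27).

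Abcc9, the partner subunit, had 2790 CPM in EOM labelled DMD, 3481 in EOM labelled WT, 2582 in TA labelled DMD and 2386 in TA labelled WT. EOM labelled WT stood above the other 3 libraries. Its fold of EOM over TA was 1.08 between the libraries labelled DMD (1.003–1.164) and 1.46 between those labelled WT (1.34–1.59). DMD over WT gave 0.802 in EOM (0.732–0.877) and 1.08 in TA (1.01–1.16). The TA direction turned under other clusterings, with log2 ratios of -0.64 to 0.23. Counted as a share of the UMIs of the subunit pair, Abcc9 took 41.1% in pericyte-like cells of EOM labelled DMD (39.1–43.1), 44.8% in EOM labelled WT (42.7–47.0), 52.7% in TA labelled DMD (51.3–54.1) and 52.0% in TA labelled WT (49.8–54.1). This share compares libraries within 1 class and does not compare the abundance of the subunits. It was lower in both EOM libraries than in both TA libraries.

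Most single pericyte-like cells had UMIs of both subunits. With each cell thinned to 1000 UMIs, Kcnj8 was detected in 94.1% of 101 cells in EOM labelled DMD, 94.3% of 70 in EOM labelled WT, 79.2% of 279 in TA labelled DMD and 86.9% of 122 in TA labelled WT. In blood-lineage cells the thinned share was 0.654%, 0.725%, 5.05% and 0% (0 of 102 cells, which allows up to 2.94%) in the same order, at median depths of 6743, 13623, 1043.5 and 10603 UMIs before thinning. Abcc9 was detected in 90.5%, 97.0%, 89.1% and 84.9% of the thinned pericyte-like cells that had Kcnj8. In those that lacked Kcnj8, few in both EOM libraries, the share with Abcc9 was 66.7%, 100%, 75.9% and 56.25%. Over all thinned pericyte-like cells it was 89.1%, 97.1%, 86.4% and 81.1%, close to the share in cells with Kcnj8. Without thinning, Kcnj8 was detected in 99.0% of pericyte-like cells in EOM labelled DMD, all 70 in EOM labelled WT, 96.1% in TA labelled DMD and 96.7% in TA labelled WT. The median thinned pericyte-like cell had UMIs of 6 of the 7 mural genes in each library except TA labelled DMD, where it had 5.

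**Figure D2:**
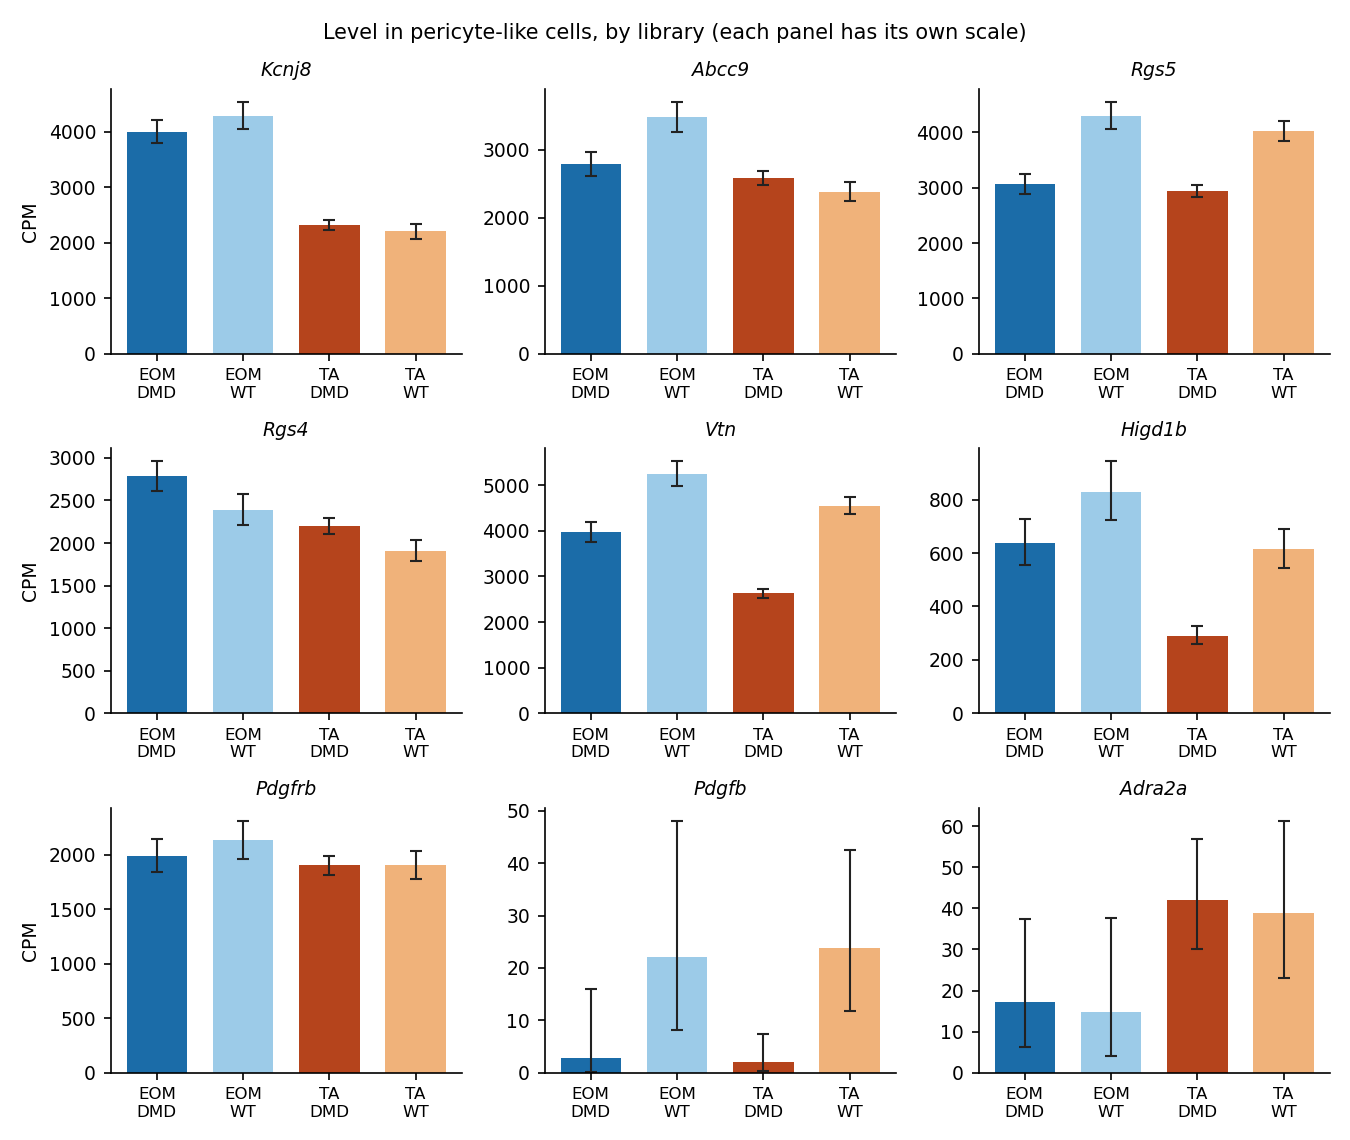
Bars give the CPM of each gene in pericyte-like cells of the 4 libraries, with 95% Poisson intervals; each panel has its own scale from 0. Kcnj8 is higher in both EOM libraries (3999 and 4288 CPM) than in both TA libraries (2317 and 2202 CPM), while Rgs5, Vtn and Higd1b are lower in the library labelled DMD of each muscle.

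Rgs5, Vtn and Higd1b were lower in pericyte-like cells of the library labelled DMD in both muscles. Rgs5 had 3065 CPM in EOM labelled DMD, 4303 in EOM labelled WT, 2934 in TA labelled DMD and 4027 in TA labelled WT. Both DMD values lay below both WT values. The fold of DMD over WT was 0.712 in EOM (0.655–0.774) and 0.728 in TA (0.687–0.773).

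Vtn encodes vitronectin, a secreted adhesive protein that binds integrins. It had 3970 CPM in EOM labelled DMD, 5250 in EOM labelled WT, 2629 in TA labelled DMD and 4551 in TA labelled WT. TA labelled DMD was the lowest of the 4, and the DMD values lay below the WT values here too. DMD over WT was 0.756 in EOM (0.702–0.815) and 0.578 in TA (0.545–0.612), and EOM over TA was 1.51 between the libraries labelled DMD (1.41–1.61).

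Higd1b belongs to a family of mitochondrial membrane proteins that respond to hypoxia and is used as a pericyte marker. Its level was 637 CPM in EOM labelled DMD, 829 in EOM labelled WT, 290.5 in TA labelled DMD and 615 in TA labelled WT. TA labelled DMD stood below the other 3 libraries. The fold of DMD over WT was 0.473 in TA (0.400–0.559), a call, and 0.768 in EOM (0.636–0.929), which was not. The TA call ended, at log2 ratios of -0.95 to -0.89 against -1.06, with size factors, thinning or no doublets removed. EOM over TA was called between the libraries labelled DMD, at 2.19 (1.83–2.62), and stood at 1.35 between those labelled WT (1.13–1.61).

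Rgs4 stood the other way round from its neighbour Rgs5. It had 2782 CPM in EOM labelled DMD, 2387 in EOM labelled WT, 2198 in TA labelled DMD and 1911 in TA labelled WT. In each muscle the library labelled DMD was the higher. DMD over WT was 1.17 in EOM (1.05–1.29) and 1.15 in TA (1.06–1.25), and these small folds turned below 1 under some of the other clusterings, given in the closing section. Of the UMIs of both genes, Rgs4 took 47.6% in EOM labelled DMD (45.4–49.8), 35.7% in EOM labelled WT (33.5–37.9), 42.8% in TA labelled DMD (41.5–44.2) and 32.2% in TA labelled WT (30.4–34.0). This share, which does not depend on how the library total is set, was higher in the library labelled DMD of each muscle.

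Pdgfrb, the receptor, had close levels in pericyte-like cells of all 4 libraries, at 1991 CPM in EOM labelled DMD, 2133 in EOM labelled WT, 1903 in TA labelled DMD and 1905 in TA labelled WT. All 4 intervals overlapped. DMD over WT was 0.933 in EOM (0.835–1.04) and 0.999 in TA (0.921–1.08). Other settings and clusterings gave log2 ratios of -0.39 to 0.11 in EOM and of -0.71 to 0.11 in TA.

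Summed, the naming markers of pericytes were lower in the library labelled DMD of each muscle, as were Rgs5, Vtn and Higd1b. In this clustering Kcnj8, Abcc9, Rgs4 and Pdgfrb did not fall with them in TA, nor did Rgs4 in EOM. The 12 marker levels summed to 10779 CPM in pericyte-like cells of EOM labelled DMD, 13229 in EOM labelled WT, 7589.8 in TA labelled DMD and 10874 in TA labelled WT. DMD over WT of the sum was 0.815 in EOM (0.778–0.853), with 10 of the 12 markers lower, and 0.698 in TA (0.673–0.724), with 12 of 12 lower. EOM over TA of the sum was 1.42 between the libraries labelled DMD (1.37–1.48), with 0 of the 12 markers lower. Between those labelled WT it was 1.22 (1.17–1.27), with 4 of 12 lower. The cells were clustered on genes that include these markers, so their levels are a description of the class.

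Read over the 9 genes, 2 of the 9 tested in pericyte-like cells of TA were called lower in the library labelled DMD, Higd1b and Pdgfb, against 3.46% of the 6620 genes tested, and 0 were called higher, against 2.58%. In EOM 1 of 8 was called lower, Pdgfb, against 6.57% of 6468, and 0 higher, against 4.07%. The Pdgfb calls rested on 2 UMIs in TA labelled DMD against 11 in TA labelled WT, and on 1 UMI in EOM labelled DMD against 6 in EOM labelled WT. They turned to log2 ratios of 0.55 and 0.61 in TA and 0.7 in EOM under other clusterings. EOM over TA called Higd1b higher between the libraries labelled DMD, 1 of 8 tested, against 2.3% of 6310 genes called higher and 3.9% lower. Between those labelled WT, 0 of the 9 were called either way, against 2.71% of 6765 genes higher and 5.56% lower. The median log2 ratio of DMD over WT was -0.0016 over the 9 genes in TA and -0.35 over the 8 tested in EOM, beside -0.12 and -0.14 over all genes tested.

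With smooth muscle-like cells included, the folds of DMD over WT of the 7 mural genes were lower than in pericyte-like cells alone. This held in TA and in EOM. In mural-like cells of TA, 3 of the 9 genes were called lower in the library labelled DMD, against 2.62% of the 6672 genes tested, and 0 higher, against 4.45%. They were Rgs5 with a fold of 0.454 (0.431–0.477), Vtn with 0.351 (0.334–0.369) and Higd1b with 0.324 (0.280–0.374). The Rgs5 call ended at a log2 ratio of -0.99 with size factors and of -0.95 without the Rasl11a-led cluster, against -1.13. For Kcnj8 the mural-like fold was 0.635 (0.593–0.681), beside 1.05 in pericyte-like cells alone. In this clustering smooth muscle-like cells made up most of the mural-like cells of TA labelled DMD. In EOM the pericyte-like share of mural-like cells differed less, at 65.6% labelled DMD and 77.8% labelled WT. The log2 ratio of Kcnj8 there was -0.54 in mural-like and -0.1 in pericyte-like cells, and that of Rgs4 -0.2 and 0.22. In EOM 0 of the 9 were called in either direction, against 2.69% of 6500 genes lower and 4.43% higher.

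EOM over TA in mural-like cells called Kcnj8, Vtn and Higd1b higher between the libraries labelled DMD, against 1.86% of 6276 genes, and 0 lower, against 1.93%. Kcnj8 had a fold of 2.27 (2.13–2.41), Vtn of 2.06 (1.94–2.18) and Higd1b of 2.72 (2.33–3.17). Between the libraries labelled WT, Kcnj8 alone of the 9 was called, with a fold of 2.10 (1.93–2.28), against 1.26% of 6667 genes higher and 2.71% lower. In pericyte-like cells alone, the log2 ratios between the libraries labelled DMD were 0.78 for Kcnj8 and 0.59 for Vtn, and that of Kcnj8 between those labelled WT was 0.96, none of them calls. Counts that change by over 1.5 times in pericyte-like cells alone are given in the closing section.

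**Figure D3:**
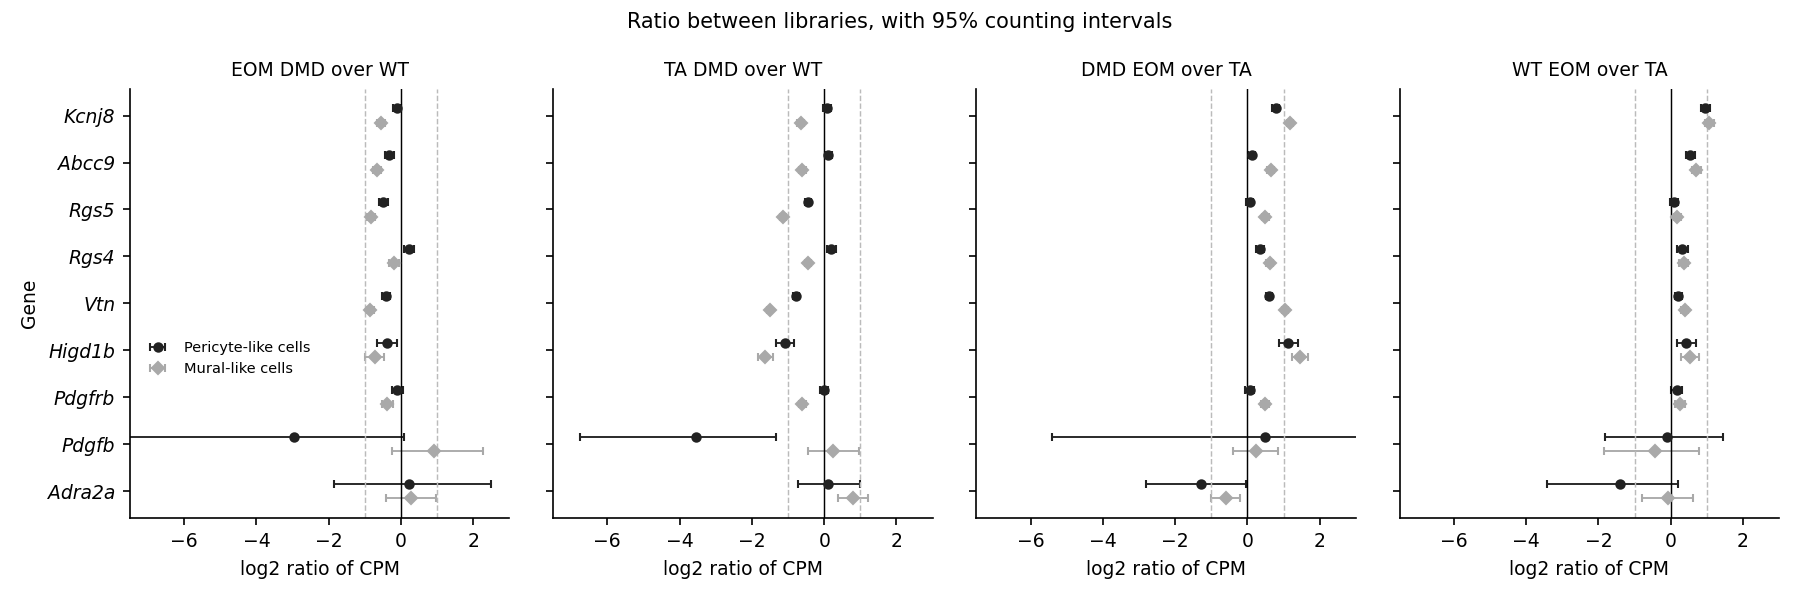
Points give the log2 ratio of CPM (no prior) of each gene in the 4 comparisons, with 95% counting intervals, in pericyte-like cells (black circles) and in all mural-like cells (grey diamonds); dashed lines mark 2-fold. For DMD over WT in TA and in EOM, the mural-like points of the first 7 genes lie left of the pericyte-like ones. For Kcnj8 in TA the folds are 0.635 and 1.05. Intervals of Pdgfb in pericyte-like cells, on 1 to 11 UMIs a library, run past some panel edges.

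The 4 mural-like clusters differed in which of the genes they held. In the Acta2-led cluster Kcnj8 had 17.4 CPM in EOM labelled DMD, 99.7 in EOM labelled WT, 83.0 in TA labelled DMD and 16.2 in TA labelled WT, from 3, 10, 76 and 4 UMIs. Rgs4 had 521, 828, 509.98 and 719 CPM there in the same order. Kcnj8 took 3.23% of the UMIs of Kcnj8 and Rgs4 together in this cluster of EOM labelled DMD (0.670–9.14), 10.8% in EOM labelled WT (5.28–18.9), 13.996% in TA labelled DMD (11.2–17.2) and 2.20% in TA labelled WT (0.602–5.53). In the pericyte-like cluster its share was 59.0%, 64.2%, 51.3% and 53.5% in the same order. The channel gene thus made up less of the pair in the Acta2-led cluster of each library, and in TA labelled DMD its level there stood beside 54.3 CPM in blood-lineage cells. In the Ccl11-led cluster the share was 28.4% in EOM labelled DMD, 30.9% in TA labelled DMD and 34.5% in TA labelled WT. These lay between the shares of the Acta2-led and pericyte-like clusters of the same library. In the Rasl11a-led cluster the share was 52.9% in EOM labelled DMD (41.9–63.7), 44.4% in TA labelled DMD (41.9–46.9) and 42.0% in TA labelled WT (28.2–56.8), from 11, 764 and 15 cells. Each was nearer to the pericyte-like than to the Acta2-led share of its library.

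In that Acta2-led cluster Rgs5 had 463 CPM in EOM labelled DMD, 987 in EOM labelled WT, 312 in TA labelled DMD and 994 in TA labelled WT. Vtn had 614, 1526, 204 and 933 CPM in the same order. Both genes were thus lower in the library labelled DMD of each muscle in this cluster as well, from 24, 13, 447 and 31 cells.

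Adra2a had its own place among the mural clusters. In the Ccl11-led cluster it had 376 CPM in EOM labelled DMD, 446 in TA labelled DMD and 486 in TA labelled WT, where EOM labelled WT had 5 cells and is not given. The 3 values overlapped in their intervals. In the pericyte-like cluster Adra2a had 17.1 CPM in EOM labelled DMD, 41.9 in TA labelled DMD and 38.8 in TA labelled WT, and in the Acta2-led one 5.79, 31.7 and 12.1 CPM. All 81 Adra2a UMIs of the Rasl11a-led cluster were in TA labelled DMD, at 64.7 CPM. Set against the UMIs of Kcnj8, Adra2a took 44.2% of the pair in the Ccl11-led cluster of EOM labelled DMD and 41.0% in that of TA labelled WT, and in TA labelled DMD each gene had 303 UMIs there. In the pericyte-like cluster the share was 0.427% in EOM labelled DMD, 1.78% in TA labelled DMD and 1.73% in TA labelled WT.

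**Figure D4:**
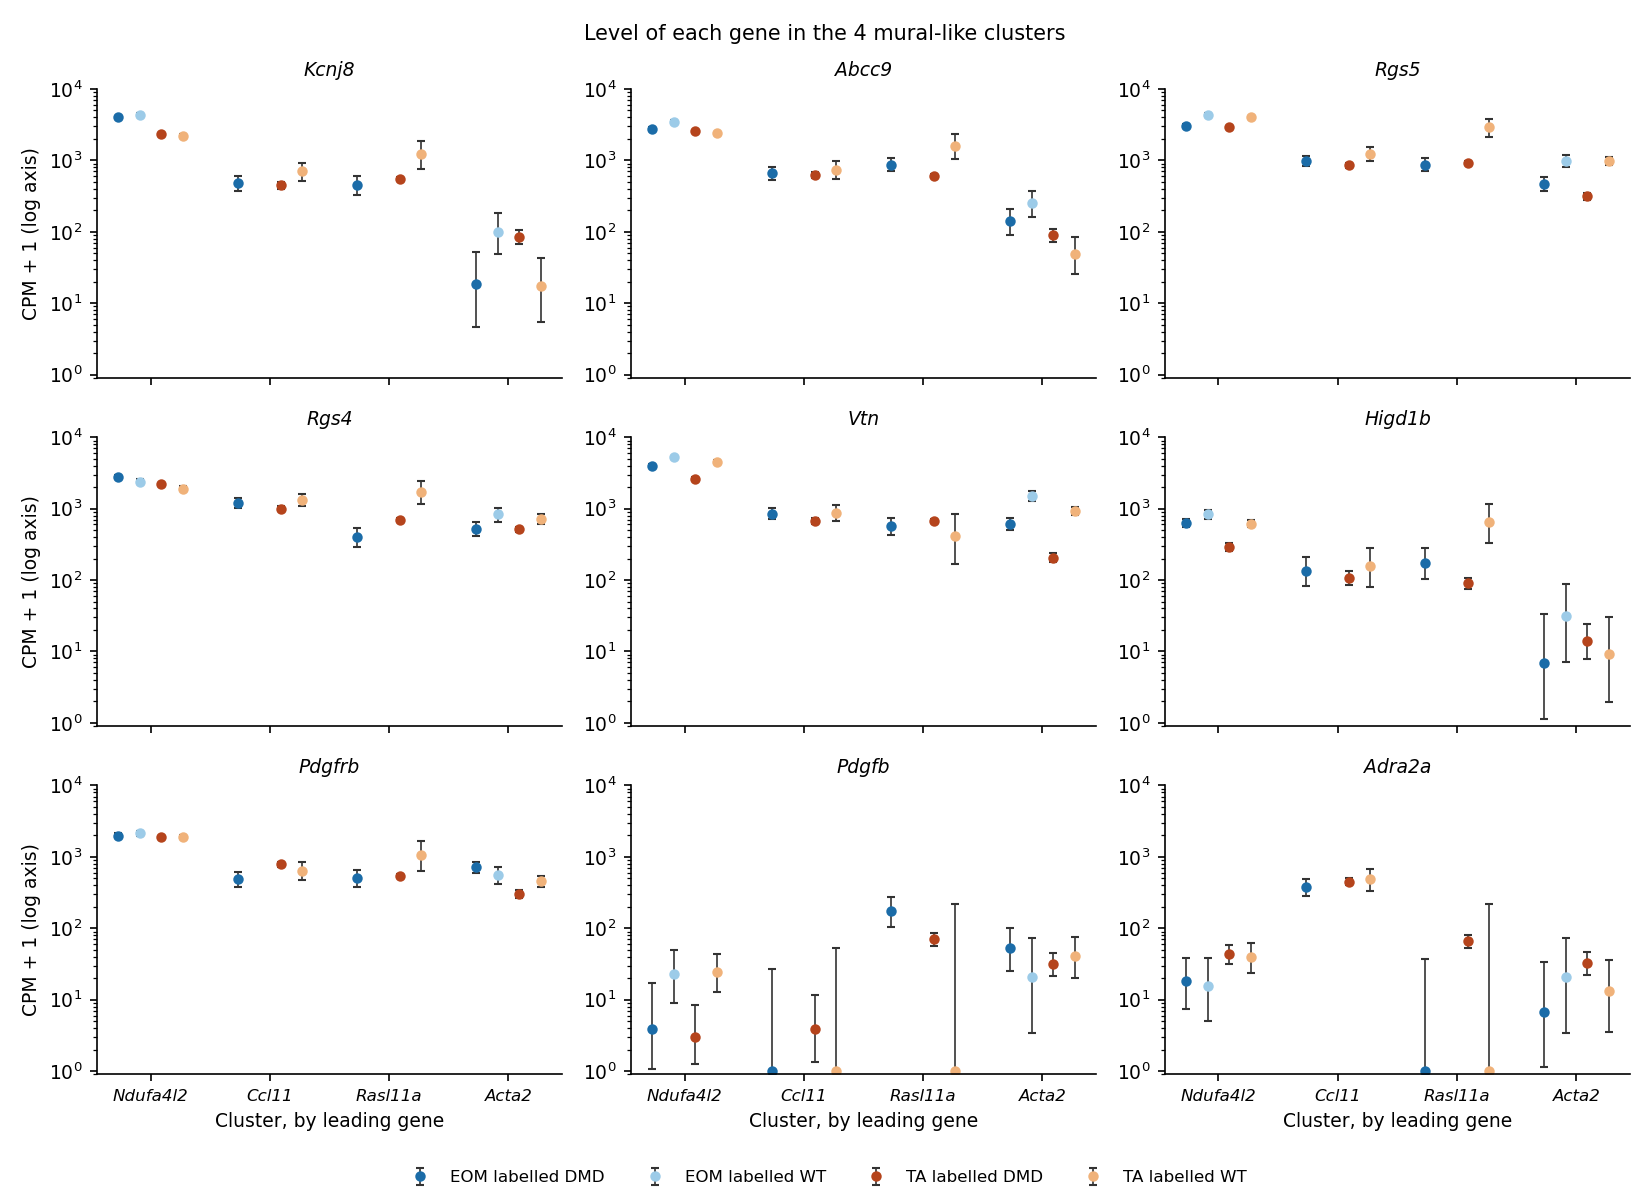
Points give CPM + 1 on a log axis for each gene in the 4 mural-like clusters, named by leading gene (Ndufa4l2 marks the pericyte-like cluster), with 95% Poisson intervals; library and cluster pairs with under 10 cells are left out. Kcnj8, Abcc9 and Higd1b are lowest in the Acta2-led cluster, and Adra2a is highest in the Ccl11-led cluster, at 376 to 486 CPM.

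Satellite-like cells, the muscle stem cells, also held Adra2a. They ranked first for it in EOM labelled WT, where smooth muscle-like cells were too few, and second to smooth muscle-like cells in TA labelled WT, where the intervals overlapped. In satellite-like cells it had 16.1 CPM in EOM labelled DMD, 60.4 in EOM labelled WT, 14.2 in TA labelled DMD and 75.1 in TA labelled WT, from 20, 46, 11 and 25 UMIs. These cells lay in different clusters, since 250 of the 308 in TA labelled DMD were in a shallow Cpa1-led cluster and 50 of the 56 in TA labelled WT in a deeper Nppc-led one, at class medians of 1021 and 6141.5 UMIs per cell. Within the Nppc-led cluster, which held most satellite-like cells of both EOM libraries, Adra2a had 16.97 CPM in EOM labelled DMD, 60.8 in EOM labelled WT, 20.4 in TA labelled DMD, from 9 UMIs, and 76.9 in TA labelled WT. Both libraries labelled DMD lay below both labelled WT. The fold of DMD over WT was 0.266 in EOM (0.149–0.459) and 0.189 in TA (0.0839–0.398). Both were called lower, against 2.16% of 6071 genes in EOM and 5.52% of 6707 in TA. Blood-lineage cells held Adra2a at 0.402, 0.531, 8.62 and 0 CPM in EOM labelled DMD, EOM labelled WT, TA labelled DMD and TA labelled WT. In cells thinned to 1000 UMIs, Adra2a was detected in 0.897%, 6.15%, 1.28% and 7.27% of satellite-like cells in that order, and in 7.11%, 20.9%, 2.60% and 33.9% without thinning, which left out 2, 4, 152 and 1 shallower cells.

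Pdgfb, the ligand, was mainly an endothelial transcript. Endothelial-like cells held 79.2% of its UMIs in EOM labelled DMD, 90.8% in EOM labelled WT, 77.8% in TA labelled DMD and 94.4% in TA labelled WT. They made up 25.9%, 43.6%, 34.9% and 75.1% of the analysed cells in the same order. The level of Pdgfb in them was 305, 412, 142 and 321 CPM in that order, from 505, 585, 1118 and 1245 UMIs. TA labelled DMD was the lowest by far, and in each muscle the library labelled DMD was the lower. DMD over WT was 0.740 in EOM (0.656–0.835), not called, against 0.833% of 6244 genes called lower. In TA it was 0.442 (0.408–0.480), a call, against 3.15% of 6322 genes. EOM over TA was 2.15 between the libraries labelled DMD (1.93–2.39), a call, against 1.63% of 6084 genes higher, and 1.28 between those labelled WT (1.16–1.42).

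The TA call depended on which clusters counted as endothelial-like. A cluster led by Plvap, a gene of fenestrated and venous endothelium, held 784 cells of TA labelled DMD and 13 of TA labelled WT, and had 83.8 CPM of Pdgfb in TA labelled DMD. It also met the naming rule for smooth muscle-like cells. Averaged over the 4 clusters with at least 50 cells in both TA libraries, the log2 ratio was -0.83, beside -1.12 over all endothelial-like cells, and no longer a call, a reading chosen after the clusters had been seen. The call also ended, at -0.80 to -0.75, under a stricter cell filter, each of 3 other clusterings and with no doublets removed, and at -0.99 with size factors. EOM over TA between the libraries labelled DMD lost its call under the same settings, at 0.53 to 0.99 on the log2 scale against 1.05. The direction was the same in each of these 4 clusters. In the Aqp1-led one Pdgfb had 364 CPM in EOM labelled DMD, 459.8 in EOM labelled WT, 203 in TA labelled DMD and 326 in TA labelled WT. In the Dll4-led cluster, whose leading gene is a Notch ligand of arterial and tip cells, it had 311, 422, 173 and 298 CPM in the same order.

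**Figure D5:**
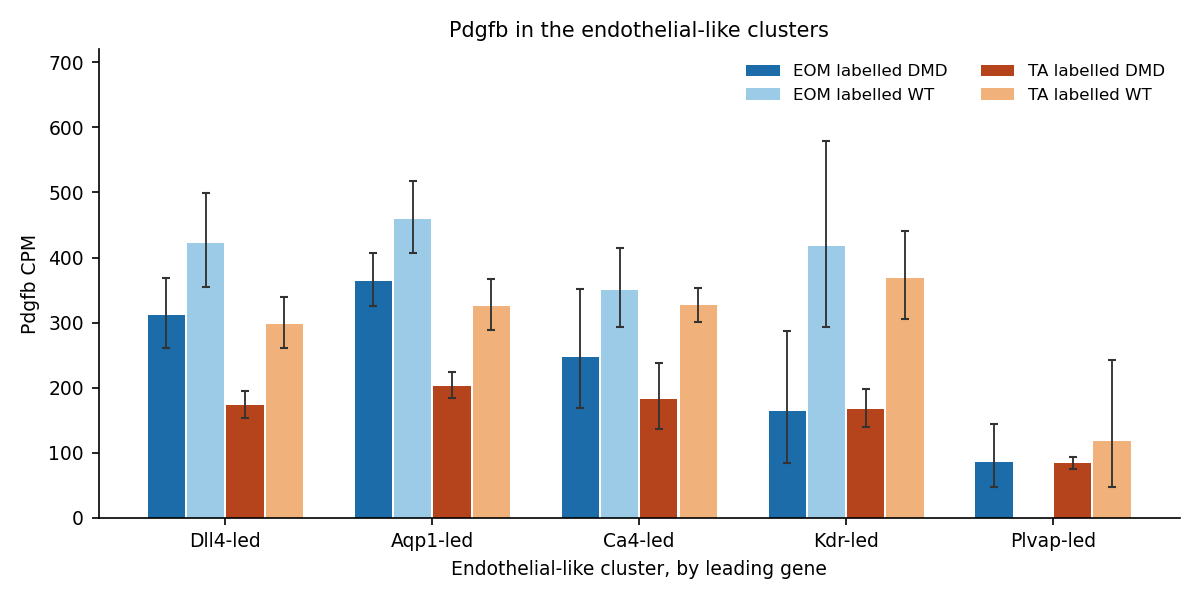
Bars give the CPM of Pdgfb in 5 endothelial-like clusters, named by leading gene, in the 4 libraries, with 95% Poisson intervals; a missing bar marks under 10 cells. In each cluster with all 4 libraries the bar of the library labelled DMD lies below that of its muscle labelled WT, as in the Aqp1-led cluster with 364 and 459.8 CPM in EOM and 203 and 326 CPM in TA.

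Thinned to 1000 UMIs, 25.4% of endothelial-like cells had Pdgfb in EOM labelled DMD, 33.1% in EOM labelled WT, 13.3% in TA labelled DMD and 27.5% in TA labelled WT. Without thinning the shares were 50.3%, 57.4%, 25.4% and 49.7%, and thinning left out 70, 40, 855 and 201 shallower cells. The thinned share in blood-lineage cells was 2.61%, 1.45%, 4.32% and 1.96% in that order. Schwann-like cells of EOM labelled DMD held Pdgfb at 99.1 CPM, and the fold of endothelial-like cells over them was 3.08 (2.19–4.47). In TA labelled DMD the level in endothelial-like cells overlapped that of its NK-like cells, with a fold of 1.44 (0.96–2.25). The mural genes had UMIs in endothelial-like cells of TA labelled DMD too. Rgs4 had 65.9 CPM there, against 4.90 in TA labelled WT, and Pdgfrb 44.1 against 1.29. Of the 8 genes tested in that class, 7 were called higher in TA labelled DMD, against 4.71% of all genes tested, at levels near those of its blood-lineage cells for 6 of the 7. Adra2a was the exception, with 26.7 CPM in endothelial-like cells and 8.62 CPM in blood-lineage cells. The former came from 210 UMIs in 92 of 2781 cells. Other non-mural classes of that library ran from 0 CPM in myofibre-like cells to 24.6 CPM in lymphatic endothelial-like cells, the latter from 5 UMIs.

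Fibroblast-like cells, which share Pdgfrb with mural cells, held Pdgfrb at 132 CPM in EOM labelled DMD, 161 in EOM labelled WT and 209.7 in TA labelled DMD. Abcc9 had 103, 178 and 53.3 CPM there in the same order. In both EOM libraries Abcc9 stood above the blood-lineage level of the same library, 13.3 and 0.531 CPM, and in TA labelled DMD it was near the 43.6 CPM of blood-lineage cells. Kcnj8 had 16.96, 22.9 and 42.3 CPM in fibroblast-like cells. Mural-like cells gave 67.7% and 76.9% of Abcc9 UMIs in EOM labelled DMD and WT, against 91.9% and 95.6% of those of Kcnj8.

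Profiles over cell types tied 7 of the genes together. Over 35 profiles of 14 classes with at least 50 cells, Pearson's r of log2(CPM + 10) between Kcnj8 and Vtn was 0.97, between Kcnj8 and Abcc9 0.94, and between Rgs5 and Rgs4 0.95. These profiles share libraries and depth, so r is a description. Adra2a had r of 0.49 with Kcnj8, and Pdgfb of -0.08. Among 4576 genes with at least 100 CPM in some profile, the most like Kcnj8 outside the 9 was Ager at 0.96, the most like Abcc9 was Scn3a at 0.93, and the most like Rgs5 and Vtn was Ndufa4l2 at 0.97 with each. For Rgs4 it was Ano1 at 0.96, for Higd1b Ager at 0.98, for Pdgfrb Cygb at 0.955, for Pdgfb Rgcc at 0.91 and for Adra2a Tagln at 0.79.

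Genes that act beside the 9 were read from companion lists, each by its count past 2-fold in mural-like cells. Of 8 other KATP and inward rectifier channel genes, such as Kcnj11 and Abcc8, 0 reached 20 CPM in mural-like cells of any library. The counts below stand against 4.45% of all genes tested called higher and 2.62% lower in mural-like cells of TA, and 4.43% and 2.69% in EOM. Of other mural ion channels and transporters, 14 were tested in TA, with 1 higher and 4 lower in the library labelled DMD, and 12 in EOM, with 0 called. Kcnq5, a voltage-gated potassium channel gene, had 14.9 CPM in TA labelled DMD, against 47.6 in TA labelled WT, and 24.5 against 77.7 CPM in pericyte-like cells alone.

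Rgs16 stood out among the other RGS genes. Of 4 of them tested in mural-like cells, 3 were called higher in TA labelled DMD and 1 in EOM labelled DMD. Rgs16, a relative of Rgs4 and Rgs5, had 183 CPM in pericyte-like cells of EOM labelled DMD, 47.9 in EOM labelled WT, 974 in TA labelled DMD and 125 in TA labelled WT, from 64, 13, 952 and 58 UMIs. Its fold of DMD over WT was 3.82 in EOM (2.08–7.55) and 7.78 in TA (5.97–10.3). In endothelial-like cells Rgs16 had 1764 CPM in EOM labelled DMD, 728 in EOM labelled WT, 1060.2 in TA labelled DMD and 496 in TA labelled WT. Blood-lineage cells held it at 169.9 CPM in TA labelled DMD and at 32.1 CPM or less in the other libraries. The part of these cells in the pericyte-like level was not tested.

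Among receptors and their signals, Adra1d, an alpha-1 adrenergic receptor gene, was the 1 called lower of 3 other adrenergic receptors tested in TA mural-like cells, at 47.3 CPM in TA labelled DMD against 165 in TA labelled WT. Of 15 vasoactive receptor and cyclic GMP genes tested there, 3 were called lower, namely Agtr1a, Pde3a and Gucy1a1, and 0 higher. In pericyte-like cells alone their log2 ratios were -0.99, -0.87 and -0.51, and that of Adra1d was -0.91, none of them calls. In EOM 0 of 14 were called. Adora2a, an adenosine receptor gene, was called higher in mural-like cells of EOM than of TA under both labels. All genes tested were called higher in 1.86% of cases between the libraries labelled DMD and in 1.26% between those labelled WT. In pericyte-like cells Adora2a had 494 CPM in EOM labelled DMD against 230.1 in TA labelled DMD. Other PDGF genes gave 0 calls of 2 tested in TA mural-like cells and 0 of 3 in EOM.

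Of the vitronectin receptors and plasminogen system, 7 were tested in TA mural-like cells, with Plat called higher and Serpine2 lower in the library labelled DMD, and 5 in EOM, with Plat called higher. In pericyte-like cells of TA alone the log2 ratio was -0.65 for Plat, the opposite sign, and -1.20 for Serpine2. Of 6 hypoxia-linked genes tested in TA, Cox4i2 and Ndufa4l2 were called lower in mural-like cells. In pericyte-like cells alone their log2 ratios were -0.64 and -0.67 and were not calls. Other pericyte identity genes had 9 of 15 called lower and 0 higher in TA mural-like cells, and 3 of 14 lower in pericyte-like cells alone, where 3.46% of all genes tested were called lower. The 3 included Cspg4, the NG2 proteoglycan gene, with 177 CPM in TA labelled DMD against 434 in TA labelled WT. Cspg4, Notch3, Mcam and others of this list are also markers that named the pericyte-like class, so its counts describe the class. Cox4i2, Ndufa4l2 and Gucy1a1 are such markers too. The mural-like count also carries the smaller share of pericyte-like cells that this clustering gave in TA labelled DMD. In EOM mural-like cells Cspg4 was the 1 called of 14, at 166 CPM in EOM labelled DMD against 395 in EOM labelled WT. Of 15 contractile genes, 0 were called in TA mural-like cells, and in EOM 1 was called higher, Cnn1, on 33 UMIs against 5, with 0 UMIs in pericyte-like cells of either library. The TA count mixes classes in unlike shares. In smooth muscle-like cells alone, the 10 smooth muscle naming markers summed to 12000.5 CPM in TA labelled DMD against 25744 in TA labelled WT. Acta2 had 3384 against 7016 CPM there. Most of these cells of TA labelled DMD lay in the Rasl11a-led cluster.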

How the data were processed

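The deposited files hold, for each library, whole-number UMI counts per gene and cell barcode, which the authors produced using Cell Ranger 4.0.0, as the file headers state; the genome build named in the submitters' processing notes is rn6. For the annotation and the choice of barcodes, the methods are not given in the sources used. Libraries held 9468266 to 20685086 UMIs in all and were 10x Chromium 3′ libraries per the labels' protocols.

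Of 17504 barcodes, 14233 had at least 500 UMIs, at least 200 genes and at most 20% mitochondrial UMIs. A doublet caller's own threshold marked 29 cells, so the highest scores were removed at 0.8% per 1000 cells, 676 cells in all, and 13557 were analysed. With scanpy 1.11.5, 2000 variable genes without the 9 genes, 30 components, 15 neighbours and Leiden resolution 1.0 gave 33 clusters, with no batch integration. A cluster was named from at least 3 markers at 2-fold over the median cluster in 10% of cells. Names were rebuilt here and may differ from the study's.

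Counts were summed per class and library, and intervals are exact Poisson, binomial (Clopper-Pearson) or conditional binomial. Classes entered a comparison with at least 50 cells in both libraries. Groups follow the disease state field of the labels. For shares of cells, each cell was thinned to 1000 UMIs and shallower cells were left out. The code was tested on simulated data.

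All 9 genes are named whatever their values. From companion lists, up to 4 genes per list and comparison past 2-fold with at least 20 UMIs are named, and the top gene outside the 9 by likeness of profile. The members and lists were chosen with earlier results of these data known. Alternatives covered the cell filters, the clustering, doublets, the prior, size factors, thinning and background subtraction. Rgs11, Prkg1, Itgb5 and Gm13861 were not analysed here. Some genes of the companion lists are not reported here.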

Additional observations from a re-analysis of the deposited data

Results flagged for a closer look

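Abcc9 in pericyte-like cells was lower in the library labelled DMD than in that labelled WT in EOM and higher in TA, and the log2 ratios of DMD over WT differed by 0.43 (TA minus EOM). With 1 library a group, this difference between the muscles was not tested.

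In satellite-like cells Kcnj8, Abcc9, Rgs5 and Rgs4 went opposite ways in the muscles, with TA minus EOM differences of 2.43, 2.73, 3.84 and 3.96 on the log2 scale, and these were not tested either. The values were small. In TA labelled DMD they were 29.7, 21.9, 37.4 and 23.2 CPM, below the 54.3, 43.6, 89.3 and 58.3 CPM of its blood-lineage cells. In EOM labelled WT all 28 Rgs4 UMIs, 18 of 19 Rgs5 UMIs, 11 of 12 Abcc9 UMIs and 5 of 8 Kcnj8 UMIs lay in a single satellite-like cell for each gene.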

How the results depend on the processing

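No paired analysis was possible because each group has 1 library. In mural-like cells of TA, 3 genes were called lower in the library labelled DMD, and 6 under a stricter cell filter (1000 UMIs or more, mitochondrial share up to 10%). That filter left 26 mural-like cells in EOM labelled WT, so comparisons with it gave no value. Between the libraries labelled DMD, the count higher in EOM was 3, and 5 when each library was clustered alone or cells were thinned to 1000 UMIs, and 0 genes were lower, against 1 when each library was clustered alone. Between those labelled WT, the count higher in EOM was 1, and 0 after thinning. In pericyte-like cells alone, a choice made after seeing the data, these counts were 1 higher between the libraries labelled DMD, 0 higher between those labelled WT, and 1 lower for DMD over WT in EOM. The causes were not tested.

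In pericyte-like cells, the log2 ratio of DMD over WT in TA ranged from -1.68 to -0.89 for Higd1b, -1.48 to -0.68 for Vtn and -1.10 to -0.34 for Rgs5 over the alternatives. In EOM it ranged from -0.77 to -0.33 for Rgs5, -0.75 to -0.22 for Vtn and -0.64 to -0.15 for Higd1b. Rgs4 changed sign, with -0.45 to 0.31 in TA and -0.10 to 0.33 in EOM, as did Kcnj8 (-0.67 to 0.19 in TA, -0.44 to 0.14 in EOM), Pdgfrb (-0.71 to 0.11 in TA, -0.39 to 0.11 in EOM), Abcc9 in TA (-0.64 to 0.23) and Adra2a (-0.35 to 1.78 in TA, -1.70 to 0.53 in EOM). With the 9 genes among the variable genes, or each library clustered alone, pericyte-like cells of TA labelled DMD numbered 999 and 983 instead of 282. They were 999 of 1524 and 983 of 1679 mural-like cells, instead of 282 of 1596. In TA labelled WT they were 135 of 180 and 131 of 176, instead of 122 of 180. How far the pericyte-like share of TA labelled DMD lay below that of TA labelled WT thus depended on the clustering. Kcnj8 of EOM over TA ranged from 0.74 to 1.46 between the libraries labelled DMD and from 0.68 to 0.99 between those labelled WT. Pdgfb in pericyte-like cells, on 1 to 11 UMIs, reversed in TA to 0.61 with the 9 genes among the variable genes and to 0.55 with each library clustered alone, and in EOM to 0.7 with the 9 genes among the variable genes. Pdgfb in endothelial-like cells of TA ranged from -1.17 to -0.75 and in EOM from -0.69 to -0.24. Median-of-ratios size factors took out a median log2 ratio of DMD over WT over all genes of -0.145 in TA and -0.104 in EOM mural-like cells, so single ratios lay higher by that much, with Vtn in TA at -1.36 against -1.50.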
